A study of Mus musculus with 10 samples.

Results

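The genes described here are 32 targets and regulators of p53 and kinases of the DNA damage checkpoint, taken from a list of names. Of these genes, 31 were read by a probe set of their own among the 18193 genes measured, and 28 were bright enough to be tested. Trp53, the gene of p53 itself, was not analysed here. They were measured on 10 expression arrays of sorted marrow cells from mice with T cell acute lymphoblastic leukemia (T-ALL), driven by ICN1, a NOTCH1 fragment that is active without ligand. All 10 samples carried the ROSCreERT2 transgene, a Cre recombinase that tamoxifen activates, and 2 floxed alleles of CnB1 (Ppp3r1), the gene of the regulatory subunit of the phosphatase calcineurin. Secondary recipient mice with leukemia received tamoxifen, which lets Cre delete CnB1 (TAM, 5 arrays), or its corn oil carrier (OIL, 5 arrays). The leukemic cells made up most of the marrow and were sorted by GFP or a similar marker. The labels give no dose, no time between treatment and collection, and no age of the mice.

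No group received tamoxifen without Cre or without floxed alleles, so tamoxifen itself, cutting by Cre and loss of CnB1 cannot be told apart. Both groups carried the same 5 labels (204, 206, F3.1, F3.2, F3), whose meaning is not given, and nothing in the labels ties each array to a mouse of its own. The p-values therefore measure only the spread between these arrays. Values are RMA log2 units, and per-array values are given below in that order of labels. A probe set's brightness depends on its probes, so levels were not compared between genes.

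Double-strand breaks and stalled replication forks activate the kinases ATM and ATR, which signal through CHK2 and CHK1 to stop the cell cycle and to stabilise p53. p53 is a transcription factor that then switches on genes of growth arrest, cell death and repair, together with its own inhibitors, chief among them Mdm2. In thymocytes and T cell leukemias this response is a main route to cell death after DNA damage, and Cre recombinase at high activity is known to cut genomic DNA at sites that resemble its own.

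The identity checks came first. The dimmer probe set of Ppp3r1 was 5.32 ± 0.58 in OIL and 3.26 ± 0.21 in TAM, and the brighter one 9.80 ± 0.09 and 9.67 ± 0.04 (SD, n = 5); where they lie relative to the deleted exons is not given here. All 12 T cell markers with a probe set were above the limit for dim genes, and their mean lay between 10.42 and 11.00 on every array, whereas 3 of 7 B cell markers were above it (mean 4.41 to 4.71). Among the 12 T cell markers the adhesion receptor Cd2 was lower in TAM in 5 of 5 pairs, at 10.94 ± 0.41 in OIL and 9.95 ± 0.28 in TAM (SD, n = 5; limma adjusted p = 0.0588, and 0.0271 with the block, where it fell). Cd2 alone of the 12 passed with the block (8.33%, against 3.38% of all genes). Most of the list went the other way: 9 of 12 lay above 0 in TAM minus OIL, with a median of 0.19. The mean of 13 myeloid markers was 4.86 to 6.07 in OIL and 5.32 to 6.57 in TAM. OIL F3.2 resembled OIL F3.1 more closely than any other 2 arrays resembled each other (r = 0.997).

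The promoters of several of these genes hold sequence that resembles the p53 binding site. RefSeq windows (build GRCm38.p6) from 250 bases before to 50 bases after the start site were matched for 24 of the 31 genes, 29 windows in all. A p53 half-site, the 10-base motif that is paired in a complete binding site, was found in 10 of the 29 windows (34.5%), belonging to 9 genes, against 8.36% of all 32851 windows. The motif reads the same on both strands. The 4 windows below are shown because they belong to the feedback inhibitors Mdm2 and Ppm1d, to the classical target Ccng1 and to Polk, which had the second lowest p of the 28 genes in TAM against OIL. Sequences run 5′ to 3′ on the strand of the gene, and capitals mark the half-site.
Mdm2, minus strand, chr10:117710915-117710964: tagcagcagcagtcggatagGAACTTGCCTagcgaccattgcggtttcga
Ppm1d, plus strand, chr11:85311102-85311151: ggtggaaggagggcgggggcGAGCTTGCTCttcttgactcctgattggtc
Ccng1, minus strand, chr11:40755442-40755491: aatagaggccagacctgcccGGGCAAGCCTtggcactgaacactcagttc
Polk, minus strand, chr13:96519389-96519437: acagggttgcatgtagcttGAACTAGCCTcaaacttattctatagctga

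The other genes with a half-site in the window were Aen, Ei24, Gadd45a, Gtse1 and Sesn1. No window of the 24 genes held 2 half-sites within 13 bases of each other, which 0.0731% of all windows did. The full cyclic AMP response element TGACGTCA, the site of CREB and ATF factors, stood in 3 of the 29 windows (10.3%) against 1.79% of all windows. It is shown in capitals for the 2 of those 3 genes without a half-site, Plk2 and Btg2; the third was Ppm1d.
Plk2, plus strand, chr13:110394962-110395009: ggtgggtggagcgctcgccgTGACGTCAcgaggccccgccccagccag
Btg2, minus strand, chr1:134079294-134079341: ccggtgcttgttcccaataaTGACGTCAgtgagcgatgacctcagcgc

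On both strands, the cell cycle element TTTGAA was in 6.9% of the windows of these genes (Aen and Fas) and 17.9% of all windows. The E2F motifs TTTGGCGC or TTTCCCGC were in 3.45% (Chek2) and 1.56%, and the NFAT core GGAAAA in 10.3% (Fas, Mdm4 and Polk) and 23.4%. A match describes the letters and does not show binding. In TAM minus OIL, the 9 tested genes with a half-site had a median difference of 0.10 (from -0.19 to 0.24, 6 above 0), and the 14 without one had 0.13 (from -0.28 to 1.48, 10 above 0). The medians were close to each other, and both ranges reached below 0.

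The first comparison asked whether tamoxifen-treated leukemias carried higher p53 target transcripts. None of the 28 tested genes passed at an adjusted p under 0.05 (limma, Benjamini-Hochberg over 12735 genes), where 0.471% of all genes did. Most stood slightly higher in TAM: 20 of 28 differences were above 0, against 41.0% of all genes, with a median of 0.09 against -0.0312 for all genes. The polo-like kinase gene Plk2 differed most, by 1.48 log2 units (2.78-fold). At an unadjusted p under 0.05, 2 of 28 passed, Plk2 and Polk, fewer than the 13.0% of all genes that did so. The genes share the same arrays, so their directions are not independent observations.

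With the label as a block, pairing the OIL and TAM arrays of the same label, none of the 28 passed either, against 3.38% of all genes. With the block, 6 of 28 genes (21.4%) had an unadjusted p under 0.05, namely Plk2, Mdm2, Sesn2, Polk, Ppm1d and Dcxr, close to the 22.4% of all genes; Dcxr is too dim in TAM for its size to be resolved. The groups did not overlap for 1 of 28 genes, Plk2 (3.57%), against 3.27% of all genes. The difference had the same direction in all 5 pairs for 3 of 28, Plk2, Mdm2 and Sesn2 (10.7%), against 21.9% of all genes.

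The precision of the arrays sets what sizes these results speak to. The 95% interval of the difference ended below 1 log2 unit for 26 of the 28 genes, all but Plk2 and Zfp365, and below 0.5 for 22. Averaged over the 28 genes, the arrays lay at 7.91 ± 0.07 in OIL and 8.03 ± 0.04 in TAM (SD, n = 5). The mean over these genes was higher in TAM in 5 of 5 pairs, by 0.06 to 0.15. Without Plk2 the means were 8.03 and 8.10, and the pairs differed by 0.01 to 0.12. Such a rise was not particular to these genes: the mean of 23 proliferation markers was also higher in TAM in each pair. That mean was 10.74, 10.79, 10.56, 10.56 and 10.63 in OIL and 10.88, 10.82, 10.76, 10.65 and 10.74 in TAM.

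**Figure D1:**
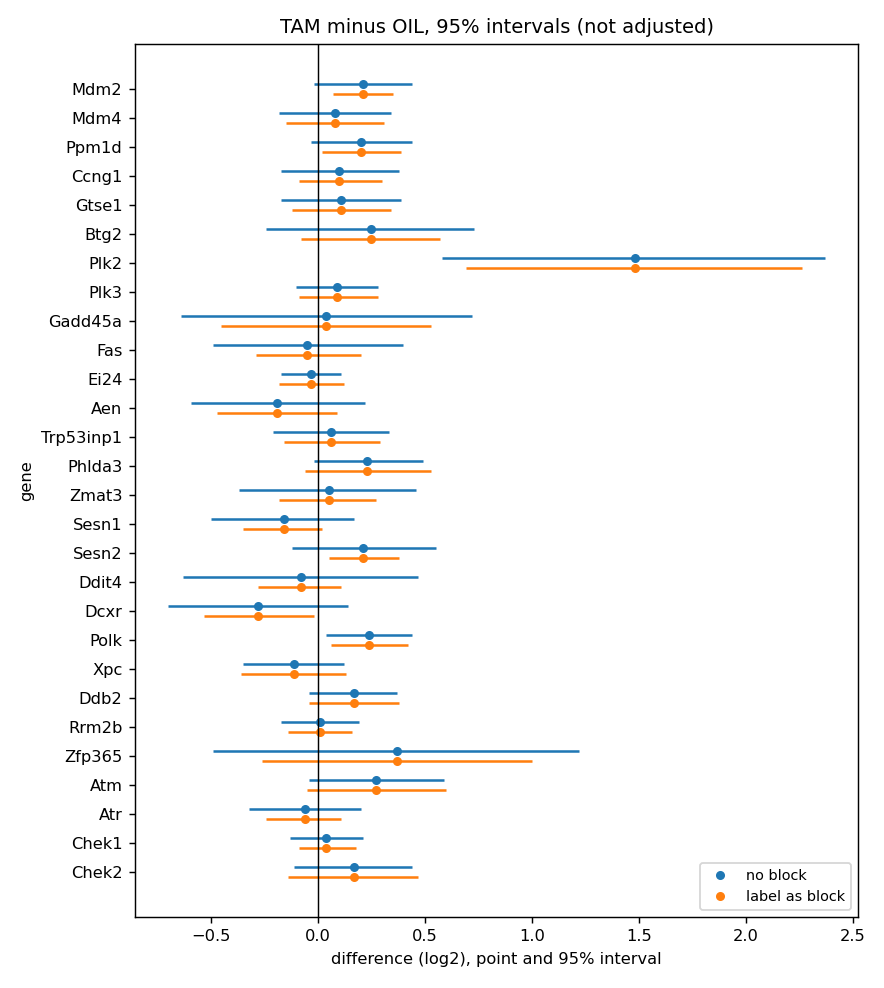
TAM minus OIL in log2 units (horizontal axis) for the 28 tested genes (vertical axis, ordered by role), with points for the fitted difference and bars for its 95% interval, not adjusted for the number of genes. Blue is the fit without a block and orange the fit with the label as a block; Plk2 lies apart at 1.48, and the other differences run from -0.28 to 0.37.

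Among the regulators that p53 itself induces, Mdm2, the ubiquitin ligase that degrades p53, was slightly higher in TAM in every pair. Its OIL values were 8.92, 8.91, 8.95, 8.97 and 9.26, and its TAM values 9.08, 9.09, 9.09, 9.32 and 9.48. The OIL F3 array lay within the TAM range, so the groups overlapped. The Mdm2 mean was 9.21 ± 0.18 in TAM against 9.0 ± 0.15 in OIL (SD, n = 5). They differed by 0.21 (SE 0.10, 95% interval -0.02 to 0.44, limma adjusted p = 0.431, and 0.0991 with the block). A second, dimmer probe set differed by 0.21 as well.

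Ppm1d, the phosphatase WIP1 that switches off ATM and p53 signalling, gave OIL values of 8.04, 7.79, 7.41, 7.76 and 7.81 and TAM values of 8.03, 7.98, 7.89, 7.89 and 8.04. The TAM arrays lay close together within the upper part of the OIL range, and OIL F3.1 was the lowest. The difference was 0.20 (SE 0.11, limma adjusted p = 0.458, and 0.19 with the block), with 4 of 5 pairs higher. Mdm4, a relative of Mdm2 that inhibits p53 at its target promoters, differed by 0.08 (limma adjusted p = 0.824) with 2 of 5 pairs higher. A dimmer Mdm4 probe set (mean 6.36) differed by 0.33 with 5 of 5 pairs higher (limma adjusted p = 0.568 over all probe sets). Still dimmer ones differed by 0.07 and 0.13.

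Plk2 led the targets that act on the cell cycle. It encodes a stress-induced polo-like kinase that p53 can switch on. Its OIL values were 4.48, 4.95, 4.66, 5.0 and 4.50, and its TAM values 5.50, 7.28, 7.23, 5.11 and 5.85. Every TAM array was above every OIL array, with the 206 and F3.1 arrays far above and the F3.2 array just above its OIL partner. OIL stood at 4.72 ± 0.25, near the limit of 4.59 below which genes were left untested, and TAM at 6.19 ± 1.00 (SD, n = 5). The difference of 1.48 (SE 0.41, 95% interval 0.58 to 2.37) gave a limma adjusted p of 0.161, and 0.0611 with the block. A dimmer Plk2 probe set with a mean of 4.56 differed by -0.12, and averaging both gave 0.68. With the block, Plk2 passed without the F3.2 pair (difference 1.82, adjusted p = 0.0222) and when the label was a random term (adjusted p = 0.0306). The F3.2 pair was the one that differed least, by 0.10. Over all 6 alternatives of the block fit, limma adjusted p-values of Plk2 ran from 0.0222 to 0.173.

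Ccng1, cyclin G1, one of the most regularly p53-induced transcripts, showed no such separation. It was 9.55, 10.15, 9.76, 9.73 and 9.98 in OIL and 9.84, 9.94, 9.89, 9.80 and 10.23 in TAM. The groups overlapped almost wholly, with 4 of 5 pairs higher in TAM and the 206 pair lower. The difference was 0.10 (SE 0.12, 95% interval -0.17 to 0.38, limma adjusted p = 0.776).

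Btg2, an antiproliferative gene induced early by p53, was 10.72, 10.28, 10.36, 10.19 and 11.17 in OIL and 10.68, 10.53, 10.40, 11.11 and 11.25 in TAM. Its difference of 0.25 (SE 0.22, limma adjusted p = 0.697) came mostly from the F3.2 pair, which differed by 0.92. Plk3, a related stress kinase, differed by 0.09, and Gtse1, a microtubule-binding protein that takes p53 out of the nucleus in G2, by 0.11. Gadd45a, a growth arrest gene, differed by 0.04 with a wide interval of -0.64 to 0.72.

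**Figure D2:**
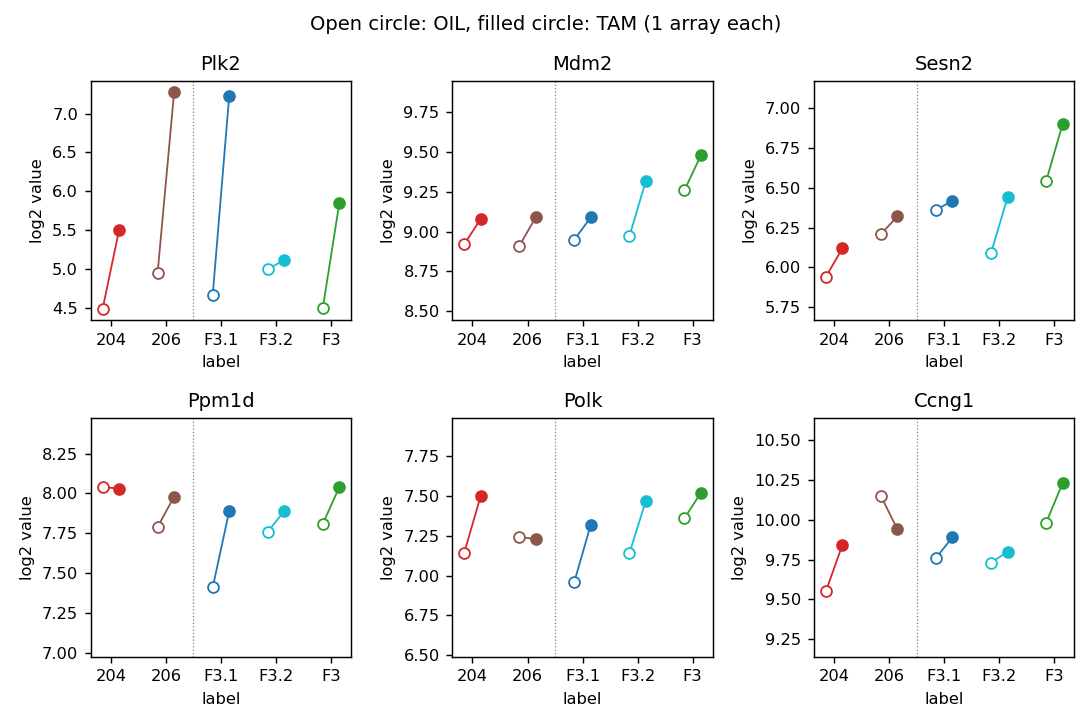
RMA log2 values (vertical axis, a scale of its own in each panel) of Plk2, Mdm2, Sesn2, Ppm1d, Polk and Ccng1 by label (horizontal axis), with open circles for OIL, filled circles for TAM, 1 array each, and a line joining the arrays of a label. The lines of Plk2, Mdm2 and Sesn2 go up in 5 of 5 labels, those of Ppm1d, Polk and Ccng1 in 4 of 5; only the Plk2 groups do not overlap.

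The cell death genes differed little. Differences in TAM minus OIL were -0.05 for the death receptor Fas, -0.03 for Ei24, an endoplasmic reticulum protein, and 0.06 for Trp53inp1, a stress protein that promotes p53 activity. Phlda3, an inhibitor of Akt signalling, differed by 0.23 (SE 0.11, limma adjusted p = 0.429) with 4 of 5 pairs higher, and the RNA-binding protein gene Zmat3 by 0.05. Aen, an apoptosis-enhancing nuclease, was 7.98, 8.37, 8.70, 9.03 and 8.26 in OIL and 8.12, 8.19, 8.62, 8.30 and 8.19 in TAM. The TAM arrays lay within the OIL range, and the difference was -0.19 (SE 0.18, limma adjusted p = 0.727).

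The last 3 cell death genes were too dim to test. They were Perp, a membrane protein of p53-dependent death (2.93 to 3.27), Eda2r, a receptor of the TNF receptor family (3.49 to 3.80), and Tnfrsf10b, the receptor of TRAIL (3.63 to 4.12). With no filter on dim genes their differences were -0.08, -0.01 and 0.01, with limma adjusted p-values of 0.75, 0.985 and 0.979.

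The stress and metabolism genes differed in both directions. Sesn2, a sestrin that restrains mTORC1, was 5.94, 6.21, 6.36, 6.09 and 6.54 in OIL and 6.12, 6.32, 6.42, 6.44 and 6.90 in TAM. Each TAM array was above its OIL partner, although the groups overlapped. The difference was 0.21 (SE 0.15, limma adjusted p = 0.61, and 0.133 with the block), and a second probe set differed by 0.36. Sesn1, the sestrin most closely tied to p53, differed the other way by -0.16 (SE 0.15, limma adjusted p = 0.705), with 1 of 5 pairs higher. Dimmer Sesn1 probe sets (means 7.5 and 7.05) differed by -0.01 and -0.07, and one with a mean of 3.88 by 0.19.

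Ddit4, the mTORC1 inhibitor REDD1, differed by -0.08 (limma adjusted p = 0.93). Dcxr, a carbonyl reductase, was 4.37, 4.34, 4.84, 4.81 and 5.28 in OIL and 4.13, 4.48, 4.27, 4.61 and 4.78 in TAM. Its fitted difference was -0.28 (SE 0.19, limma adjusted p = 0.593, and 0.191 with the block). Its mean of 4.59 lies at the limit for dim genes, which it passed through its OIL arrays (mean 4.73, against 4.45 in TAM), so the size of this difference is not resolved.

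Of the repair genes, Polk, the translesion polymerase kappa, gave OIL values of 7.14, 7.24, 6.96, 7.14 and 7.36 and TAM values of 7.50, 7.23, 7.32, 7.47 and 7.52. The 206 pair was level, and the other 4 pairs were higher in TAM. The difference was 0.24 (SE 0.09, 95% interval 0.04 to 0.44, limma adjusted p = 0.293, and 0.126 with the block). The ultraviolet damage sensor Ddb2 differed by 0.17 (limma adjusted p = 0.49), and Rrm2b, the p53-inducible ribonucleotide reductase subunit, by 0.01 (adjusted p = 0.982). Xpc, which recognises damage in nucleotide excision repair, was 7.01, 7.01, 7.08, 6.93 and 7.40 in OIL and 7.09, 6.81, 6.88, 7.16 and 6.91 in TAM. The Xpc groups overlapped apart from a high OIL F3 array, and the difference was -0.11 (SE 0.10, limma adjusted p = 0.704).

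Zfp365, a zinc finger gene linked to genome stability, varied widely. It was 6.92, 6.78, 6.60, 6.90 and 5.87 in OIL and 7.83, 7.81, 7.12, 5.92 and 6.24 in TAM. TAM was higher in the 204, 206, F3.1 and F3 pairs whereas the F3.2 pair differed by -0.98. The difference was 0.37 (SE 0.39, limma adjusted p = 0.743, and 0.45 with the block). In the block fit that left out the F3.2 pair, and so the only pair lower in TAM, it was 0.71 (adjusted p = 0.0344). Over all 6 alternatives of the block fit it ran from 0.2 to 0.71, with limma adjusted p-values of 0.0344 to 0.722. A dimmer Zfp365 probe set with a mean of 4.92 differed by 0.01 over all arrays.

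The checkpoint kinases were measured well above the limit for dim genes, and none passed the test. Atm, the kinase of double-strand breaks, was 8.67, 8.74, 8.30, 8.07 and 8.75 in OIL and 8.61, 8.75, 8.69, 8.96 and 8.89 in TAM. The difference of 0.27 (SE 0.14, limma adjusted p = 0.456) came from the F3.1 and F3.2 pairs, whose OIL arrays were the lowest; a second probe set differed by 0.29. Chek2, its downstream kinase, was 7.97, 8.11, 7.54, 7.57 and 8.04 in OIL and 7.93, 7.90, 7.99, 8.21 and 8.04 in TAM. The OIL arrays of F3.1 and F3.2 were again the lowest, and the difference was 0.17 (SE 0.13, limma adjusted p = 0.635).

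Atr, the kinase of stalled forks, differed by -0.06 (SE 0.12, limma adjusted p = 0.872). Chek1, which Atr activates, was 9.08, 9.33, 9.20, 9.14 and 9.07 in OIL and 9.12, 9.28, 9.35, 9.20 and 9.07 in TAM. The Chek1 values of both groups covered nearly the same narrow range, and the difference was 0.04 (SE 0.08, 95% interval -0.13 to 0.21, limma adjusted p = 0.866). A dimmer Chek1 probe set (mean 6.79) differed by 0.24 with 5 of 5 pairs higher (limma adjusted p = 0.665 over all probe sets). The remaining ones differed by 0.09, 0.06 and -0.04.

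**Figure D3:**
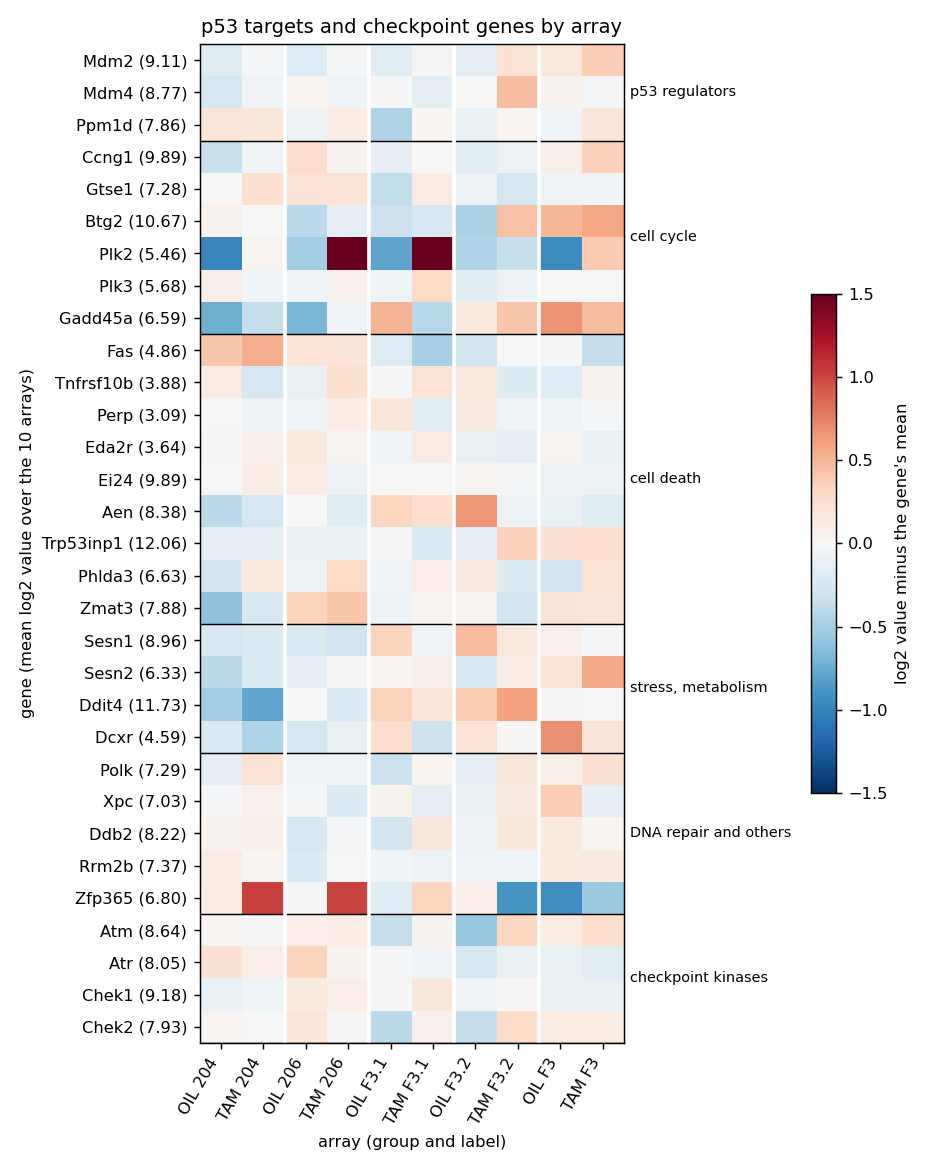
RMA log2 value of each of the 31 measured genes (vertical axis, ordered by role, with the gene's mean over the 10 arrays in brackets) minus that mean, for each array (horizontal axis, OIL beside TAM of the same label). Colours run from -1.5 (blue) to 1.5 (red); Plk2 and Zfp365 vary most, and the colours of Fas, Gadd45a, Sesn1 and Ddit4 shift between the 204 and 206 arrays on the left and the F3, F3.1 and F3.2 arrays on the right.

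Among genes of the same pathways outside this set, 2 stood far apart from OIL in TAM, Ephx1 and Cdkn1a. Of 25 other p53 pathway genes tested, 1 fell and none rose without the block (4%, against 0.471% of all genes). Ephx1, the microsomal epoxide hydrolase, fell (limma adjusted p = 0.000614), with 6.67 ± 0.39 in OIL and 4.55 ± 0.11 in TAM (SD, n = 5). Its TAM mean is under the limit for dim genes, which it passed through its OIL arrays, so the size of the fall is not resolved. Cdkn1a, the cyclin-dependent kinase inhibitor p21 and the best known arrest target of p53, was 6.34, 7.67, 6.40, 6.51 and 6.26 in OIL and 8.17, 9.27, 7.69, 8.78 and 8.20 in TAM. Every TAM array was above every OIL array. Its difference of 1.78 had a limma adjusted p of 0.0511, and with the block it rose (adjusted p = 0.00356). Cdkn1a and Ephx1 were the 2 of 25 that passed with the block (8%, against 3.38% of all genes). The death genes Bbc3 (PUMA) and Pmaip1 (NOXA) differed by -0.55 (limma adjusted p = 0.221) and -0.29 (adjusted p = 0.766). The median difference of the 25 genes was -0.02, with 12 above 0, and 7 of 25 (28.0%) had an unadjusted p under 0.05, against 13.0% of all genes. This list and the next were written with earlier results of these data known, so their shares do not test the pathways.

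Of 33 other checkpoint and repair genes tested, none passed without the block; before adjustment 6 had a p under 0.05 (18.2%, against 13.0% of all genes), and the block gave 9 (27.3%, against 22.4%). With the block 1 of 33 passed (3.03%, against 3.38% of all genes). This was Lig4, the ligase of non-homologous end joining, which rose from 9.42 ± 0.19 in OIL to 9.89 ± 0.09 in TAM (SD, n = 5), with a limma adjusted p of 0.0211, against 0.0728 in the fit without the block. The median difference of the 33 genes was 0.05, with 23 above 0. The mean of 23 proliferation markers was 10.56 to 10.79 in OIL and 10.65 to 10.88 in TAM. Of these markers 17 of 23 lay above 0, with a median difference of 0.09, the same as that of the 28 p53 and checkpoint genes. None passed without the block, where 5 (21.7%, against 13.0% of all genes) had an unadjusted p under 0.05 in limma. With the block 1 of 23 rose (4.35%, against 3.38% of all genes), the thymidylate synthase gene Tyms, by 0.64 (limma adjusted p = 0.026, and 0.0855 without it). The part of proliferation in the differences of the p53 and checkpoint genes was not tested.

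The second comparison asked whether these genes differ between labels, with the 6 arrays labelled F3, F3.1 or F3.2 set against the 4 labelled 204 or 206 and treatment as a covariate. Fas and Atr were lower, and Sesn1, Ddit4 and Gadd45a higher, in the F3 arrays. These were 5 of 28 genes (17.9%) at an adjusted p under 0.05 in limma, against 11.8% of all genes. Before adjustment, 10 of 28 had a p under 0.05 (35.7%), against 27.1% of all genes. The families of labels did not overlap for 3 of 28 (10.7%), against 11.5% of all genes. This fit takes the OIL and TAM arrays of a label as separate, although they may share a leukemia. With the label as a random block, 1 of 28 passed, Fas (3.57%), against 6.56% of all genes. That block still counts F3, F3.1 and F3.2 as separate units, and whether they stand for separate leukemias is not given. The correlation of OIL F3.2 with OIL F3.1 was 0.997. Neither fit allows for a common origin of the F3 labels, so the p-values below for Fas, Sesn1, Atr, Ddit4 and Gadd45a do not cover it.

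Fas, the receptor of FAS ligand, was 5.26, 5.07, 5.40 and 5.05 on the arrays OIL 204, OIL 206, TAM 204 and TAM 206. On the F3 arrays it was 4.66, 4.57 and 4.84 in OIL and 4.37, 4.86 and 4.50 in TAM. All 4 arrays of 204 and 206 were above all 6 F3 arrays. The difference was -0.56 (SE 0.12, limma adjusted p = 0.0137, and 0.0412 with the random block), with the F3 arrays close to the limit of 4.59 for dim genes.

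Sesn1 was 8.72, 8.74, 8.76 and 8.67 on the arrays OIL 204, OIL 206, TAM 204 and TAM 206, and 8.91 to 9.44 (median 9.07) on the F3 arrays. The 204 and 206 arrays lay within a narrow band below all F3 arrays. The difference was 0.40 (SE 0.09, limma adjusted p = 0.024, and 0.0612 with the random block). Averaged over all its probe sets, Sesn1 differed by 0.32 (limma adjusted p = 0.0786).

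Atr was 8.28, 8.39, 8.15 and 8.11 on the same 4 arrays and 7.79 to 8.02 (median 7.94) on the F3 arrays. Again the families did not overlap, and the difference was -0.30 (SE 0.07, limma adjusted p = 0.0284, and 0.0806 with the random block). Averaged over all its probe sets, Atr differed by -0.03.

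Ddit4 was 11.21, 11.73, 10.95 and 11.52 on those 4 arrays and 11.73 to 12.34 (median 11.99) on the F3 arrays. OIL 206 and TAM F3 met at 11.73. The difference was 0.63 (SE 0.17, limma adjusted p = 0.0379, and 0.0645 with the random block). Gadd45a was 5.86, 5.90, 6.25 and 6.54 against 6.18 to 7.26 (median 7.04), with TAM F3.1 among the 204 and 206 arrays. It differed by 0.75 (SE 0.22, limma adjusted p = 0.0495, and 0.134 with the random block).

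The count of 5 fell when single arrays were left out: to 1 without OIL 204 or OIL F3.1, to 2 without OIL 206 or TAM 204, and to 3 without TAM 206, TAM F3.2 or TAM F3. Fas passed in all 18 alternatives in which it was tested, with adjusted p-values of 0.00474 to 0.0492.

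**Figure D4:**
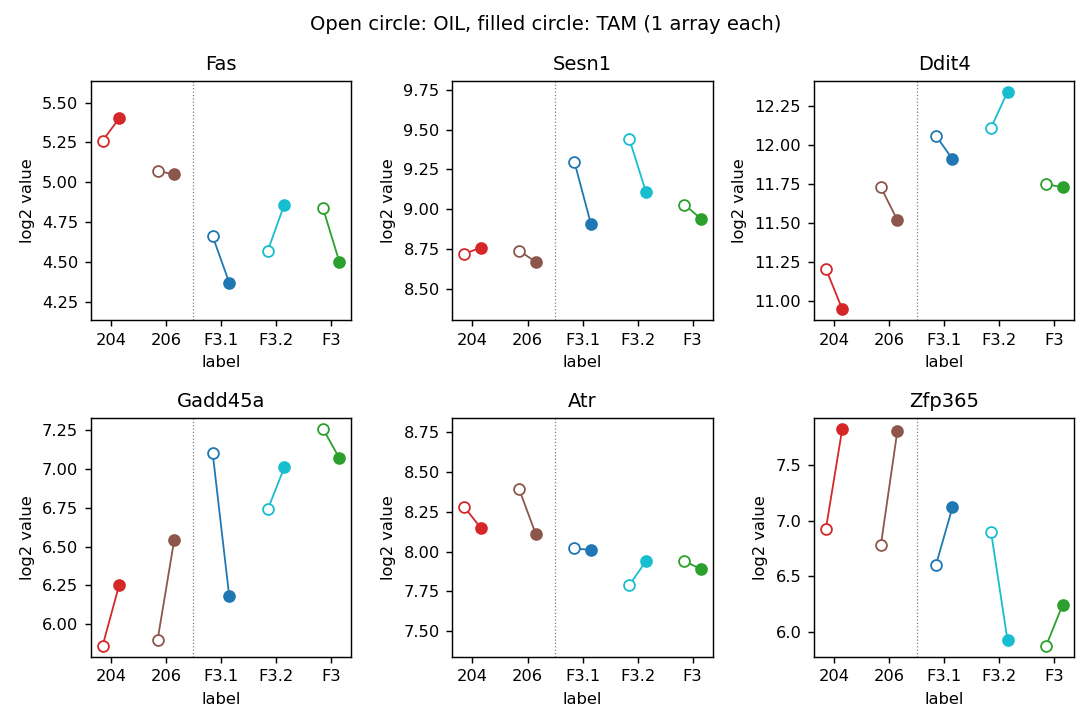
RMA log2 values (vertical axis, a scale of its own in each panel) of Fas, Sesn1, Ddit4, Gadd45a, Atr and Zfp365 by label (horizontal axis), with open circles for OIL, filled circles for TAM, 1 array each, and a dotted line between the 204 and 206 labels and the F3 labels. Fas and Atr stand higher and Sesn1 lower on the left of the dotted line, with no overlap; Zfp365 differs by -0.89 and did not pass (limma adjusted p = 0.0764).

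Markers of other cells and of growth also varied with the labels. The mean of the 13 myeloid markers was 4.86 to 5.47 on the 204 and 206 arrays and 5.32 to 6.57 on the F3 arrays. Of 11 tested, 10 lay above 0 in F3 minus 204 and 206, with a median of 0.73 against 0.0043 for all genes. Before adjustment 6 of 11 had a p under 0.05 in limma (54.5%, against 27.1% of all genes). After adjustment 1 of 11, Ltf, passed, higher in F3 (9.09%, against 11.8% of all genes). The mean of the 23 proliferation markers was 10.74 to 10.88 and 10.56 to 10.76, and 4 of 23 passed (17.4%, against 11.8% of all genes), all lower in F3: Cdk1, Aurkb, Ccna2 and Cdc20. The collagen gene Col1a2, a stromal marker, was lower in F3 as well, at -3.11 (limma adjusted p = 0.024), with 9.29 and 10.24 on the 206 arrays and 4.49 to 6.55 on the others. Of the 6 stromal and endothelial markers tested it alone passed (16.7%), 4 lay above 0 and the median was 0.05. The collagen genes Col1a1 (3.55 and 3.60 on the 206 arrays) and Col3a1 (2.48 and 2.55) were too dim to test. The B cell marker Igll1 (-0.68) and the dendritic marker Bst2 (-0.79) were lower too, and the T cell marker Cd8a was higher by 1.5 (limma adjusted p = 0.0417). These were single genes of their lists. The other B cell markers tested, Pax5 and Vpreb1, differed by 0.08 and -0.02, and Flt3, the other dendritic marker tested, by 0.11. Of the 12 T cell markers 4 lay above 0, with a median of -0.12, and Cd8a alone passed (8.33%, against 11.8% of all genes). With the random block, of all these markers Ccna2, Cdc20 and Col1a2 passed. These were 2 of 23 proliferation markers (8.7%) and 1 of 6 stromal and endothelial markers (16.7%), against 6.56% of all genes. The part of these markers in the differences of Fas, Sesn1, Atr, Ddit4 and Gadd45a was not tested, and fewer cells of a type and less RNA per cell cannot be told apart in sorted bulk samples. Of the other checkpoint and repair genes, 8 of 33 were lower in F3 and none higher (24.2%, against 11.8% of all genes), with a median of -0.14. With the random block 5 of 33 passed, all lower (15.2%, against 6.56%). The largest of these was Brca2, a gene of homologous recombination repair, at -0.67 (limma adjusted p = 0.00195 in the fit without the random block). Of the 25 other p53 pathway genes, Cd82, a tetraspanin, was higher by 1.18 (limma adjusted p = 0.00394), and Bid, Siva1 and Trp53bp2 were lower (4 of 25, 16.0%, against 11.8% of all genes). With the random block, Cd82 and Bid passed (8%, against 6.56% of all genes).

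The third comparison asked whether the difference between TAM and OIL itself differed between the F3 labels and 204 and 206. No gene of the 28 passed at an adjusted p under 0.05 in limma, and 0% of all 12735 genes did. Before adjustment, 0 of 28 had a p under 0.05, against 2.72% of all genes. Chek2 came nearest, with a difference of differences of 0.49 (unadjusted p = 0.0506 in limma, adjusted p = 0.998), followed by Gadd45a at -0.80 (unadjusted 0.0607), Atm at 0.50 (0.0798) and Zfp365 at -0.99 (0.0857). For Gadd45a, both the 204 and 206 pairs were higher in TAM, by 0.39 and 0.64, whereas the pairs of F3.1, F3 and F3.2 differed by -0.92, -0.19 and 0.27.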

How the data were processed

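The authors deposited log2 values of 45101 probe sets, which the submitters' processing notes credit to RMA; the version and the genome build are not given in the sources used here. This method normalizes arrays by quantiles, so a shift common to all genes is removed before deposit. Array medians were 5.07 to 5.13. Arrays have no read depth; precision rests on their number.

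The platform annotation named the probe sets (34958 with 1 symbol, 932 with several, 9211 with none; 34754 matched RefSeq by Entrez ID). A gene was read by its brightest probe set, by mean over 10 arrays, and the lowest 30% of genes (below 4.59) were left out. Differences were fitted with limma 3.58.1 (lmFit, eBayes) under R 4.3.3 (data.table, version 1.17.8), with Benjamini-Hochberg adjustment over 12735 genes and called at 0.05. The scripts were tested on simulated data. Deviations from the group mean correlated between the OIL and TAM array of a label (r of 0.80 for F3, 0.76 for 204, 0.75 for 206, 0.58 for F3.1 and 0.18 for F3.2; limit 0.1). OIL F3.2 correlated best with TAM F3.1, so the pairing is least certain there. The pairing comes from the labels, with the number that follows F3.1 and F3.2 in the names dropped. The genes, lists and tests were chosen with earlier results of these data known. All genes of the set are named; described at most length are those passing any test, the 5 largest differences each way, and Mdm2, Ccng1, Atm, Atr, Chek1 and Chek2; from the other p53 and checkpoint lists, genes called without or with the block, and Cdkn1a. Bbc3, Pmaip1, cell type and proliferation markers and genes of the lists named for the labels were added after their values were seen. Alternatives were the block, other filters, centring, probe set choices, array weights and left-out arrays.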

Additional observations from a re-analysis of the deposited data

Results flagged for a closer look

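Within the 5 arrays of a group, 3 of 62 series of values had 1 array far from the others by Dixon's test, about the 1 in 20 that chance gives. Mdm2 on OIL F3 was 9.26, with the next OIL array at 8.97. Mdm4 on OIL 204 was 8.51, with the next at 8.75, and Mdm4 on TAM F3.2 was 9.23, with the next at 8.75.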

How the results depend on the processing

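No gene of the set was called in TAM against OIL without the replicate block in any alternative, among them a label family term, other filters, centring, probe set choices, array weights and left-out arrays. Over 20 alternatives 17 to 21 of the genes lay above 0, with a median of 0.04 to 0.13, while 37.5% to 46.6% of all genes did. With the replicate block the count was 0, and all genes called went from 60 to 431. Leaving out a pair gave 0 to 2 called genes of the set (Plk2 and Zfp365, without F3.2), and the label as a random term gave 1, Plk2. All genes called were 8 (without OIL F3.1) to 242 (array weights) over the alternatives without it and 87 to 728 over those with it. Between label families the 5 calls became 6 with array weights (Gtse1 added), 2 with the mean of all probe sets, 3 with OIL F3.1 and OIL F3.2 averaged and 1 with the label as a random block, which was chosen after seeing the data, and 1 to 5 with single arrays left out, where Zfp365 was called without OIL F3.2 and Dcxr without TAM F3.1; the remaining alternatives gave 4 or 5. All genes called there were 835 to 2240. Differences near 0 changed sign. Atr was 0.10 with the mean of all probe sets and 0.01 with array weights, and with array weights Fas was 0.08 and Gadd45a -0.12. With single arrays left out, Atr ran from -0.13 to 0.01, Ddit4 from -0.25 to 0.10, Fas from -0.19 to 0.07 and Gadd45a from -0.14 to 0.21. The number of arrays and the dimness of Plk2, Dcxr and Fas limit what can be resolved. The cause of these changes was not tested.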
